A study of Rattus norvegicus with 12 samples.

Results

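The genes described here are 34 markers of the cells that are not neurons in a neuron culture: 12 of astrocytes, 10 of the oligodendrocyte lineage and 12 of microglia and immune cells. A gene was taken up through each probe set of the array that the platform table names with that single symbol, which found 33 of the 34 (50 probe sets, of 31042 in all for 14217 named genes). Sox9 is not named on a probe set in the table used here. Values are those of the gene's brightest probe set unless another is mentioned.

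Astrocytes take up glutamate and potassium around neurons, make glutamine and are joined by connexin channels. In the cerebellum a specialised astrocyte, the Bergmann glia, ensheathes Purkinje cells. Oligodendrocytes arise from precursors that carry the PDGF receptor alpha and later make myelin proteins, while microglia are the resident macrophages of the brain and carry complement, Fc receptor and CSF1 receptor transcripts. Granule neuron cultures are commonly treated to stop glial division but keep some glia, and these markers were chosen to read the content that is not neuronal. How specific each marker is in these cultures was not tested. In RNA from a whole culture, fewer cells of a type and less RNA per cell cannot be told apart.

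Total RNA from rat cerebellar granule neuron cultures was hybridised to 12 arrays. Each of 4 groups has 3 arrays, and the groups cross low potassium or GW5074 with a time of 3 h or 6 h. GW5074 is a small-molecule kinase inhibitor, and lowering potassium is a standard way to set off granule neuron death. The 3 arrays of a group carry the letters A, B and C. The labels give no strain, animal age, dose or agent against glia. They leave unsaid whether low potassium was also applied with GW5074 and whether a letter is a culture of its own, so the p-values measure a spread that may be technical. Without a group in raised potassium, an effect of low potassium and one of time in culture cannot be told apart in the 6 h against 3 h comparison. The title of the GW5074 6 h array A ends in a suffix unlike the other 11, and the sources used here do not explain it.

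Arrays separated by time on the first principal component (54.7% of the variance). On a scale with 0 at the mean of the 3 h arrays and 1 at that of the A and C arrays of 6 h, the 3 h arrays lay between -0.07 and 0.10 and the 6 h arrays A and C between 0.94 and 1.05. Letter B at 6 h was intermediate, with 0.59 in low potassium and 0.54 with GW5074, so time changes are given with and without them where the size moves. The log2 difference between the 3-prime and 5-prime actin probe sets, a sign of RNA quality, was 0.85 to 1.07 in low potassium and 0.87 to 1.36 with GW5074 at 3 h, and 0.97 to 1.02 and 1.06 to 1.17 at 6 h. At 6 h every GW5074 array thus lay above every low potassium array. The GAPDH difference overlapped at 6 h (0.10 to 0.19 and 0.14 to 0.16). The part of RNA quality in the 6 h treatment differences was not tested.

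All 3 classes had genes bright enough to test, but not all of their defining genes were. Probe sets were tested when their mean over the arrays reached the 40th percentile of all, an intensity of 28.0. That cut is a rank among probe sets and not a call of presence. The filter kept 34 of the 50 member probe sets, for 25 genes: 10 of 11 astrocyte, 7 of 10 oligodendrocyte lineage and 8 of 12 microglia genes. The 8 genes under the filter were Slc1a2 (the glutamate transporter GLT-1), Olig2 (a lineage transcription factor), Cspg4 (the NG2 proteoglycan of precursors), Mobp (a myelin protein), Aif1 (the microglial protein IBA1), Cx3cr1 (the fractalkine receptor), Itgam (CD11b) and Ptprc (CD45, on all leukocytes).

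The dim markers can be read only as low. Aif1 lay between 13.5 and 36.8 over the 12 arrays (median 21.2). Cx3cr1 ranged from 10.6 to 23.3 (median 18.0) and Olig2 from 1.44 to 35.9 (median 13.1). Thus 4 of the 12 microglia markers on the array, among them the receptor and the actin-bundling protein most used to identify microglia, gave no testable level, while complement, Fc receptor and lysosomal genes of the same class did. Without the filter, limma called 0 of the 16 dim probe sets in any of 5 comparisons (unadjusted p from 0.0123 upwards for the brighter probe set of each gene). Below the filter lay 32% of the member probe sets and 40% of all.

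The glial markers that passed the test did so with time, and the astrocyte genes did not move together. Gfap, the intermediate filament of astrocytes, rose 3.66- and 3.77-fold from 3 h to 6 h in low potassium and with GW5074. Ntsr2, the neurotensin receptor 2 that is enriched in astrocytes, and Agt, angiotensinogen, which brain astrocytes secrete, fell by between 2.81- and 3.61-fold. In the oligodendrocyte lineage Cnp fell, as did some probe sets of Mbp, and no microglia gene passed. These directions were the same in low potassium and with GW5074.

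The Gfap intensities in arrays A, B and C were 368, 380.1 and 671 in low potassium at 3 h and 357, 362 and 545 with GW5074 at 3 h. At 6 h they were 2764, 728 and 2346 in low potassium, against 2002, 941 and 2032 with GW5074. All 6 h arrays lay above all 3 h arrays, and within 6 h array B was the lowest under both treatments. The rise from 3 h to 6 h was 1.87 ± 0.43 in log2 (SE, n = 3 a group; 3.66-fold; limma adjusted p = 0.00808) in low potassium and 1.92 ± 0.43 (3.77-fold; adjusted p = 0.00647) with GW5074. Without the 6 h arrays of letter B it was 2.50 and 2.30. Array B at 6 h showed 26.1% of the Gfap change of arrays A and C in low potassium, and 50.5% with GW5074.

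Ntsr2 read 582, 588 and 418 in low potassium, against 546, 512 and 403 with GW5074 at 3 h. By 6 h the same gene read 144, 164 and 107 in low potassium, against 150.2, 160.0 and 137 with GW5074. Every 6 h array lay below every 3 h array, array B at 6 h included. The log2 change was -1.85 ± 0.18 (3.61-fold lower, adjusted p = 9.19e-05) in low potassium and -1.64 ± 0.18 (3.12-fold lower, adjusted p = 0.000110) with GW5074. Here array B at 6 h showed 82.1% and 91.4% of the change of A and C.

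Agt gave 237, 331 and 207 in low potassium at 3 h, and its GW5074 arrays at that time gave 280.1, 344 and 236. They had fallen to 60.7, 102 and 95.4 (low potassium) and 60.6, 97.2 and 115 (GW5074) at 6 h, again with no overlap between the times. Its log2 change was -1.49 ± 0.24 (adjusted p = 0.00114) in low potassium and -1.55 ± 0.24 (adjusted p = 0.000706) with GW5074.

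**Figure D1:**
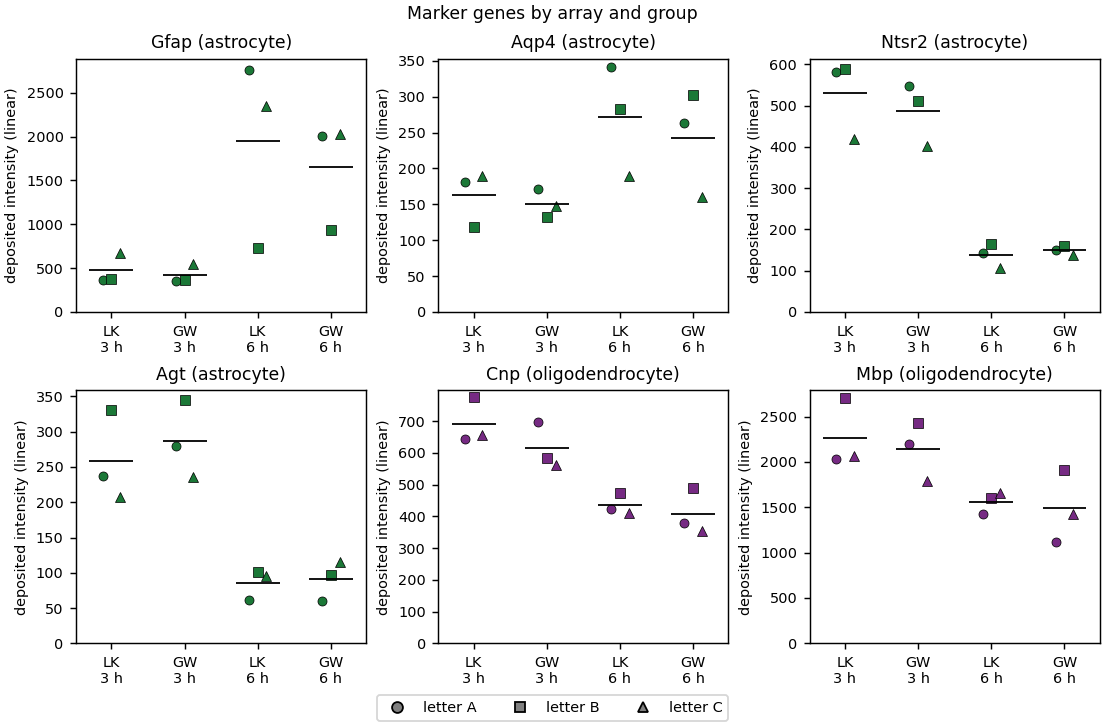
Deposited intensity (linear axis from 0) of 6 marker genes in each of the 12 arrays; LK is low potassium, GW is GW5074, each symbol is 1 array (circle A, square B, triangle C) and the bar is the mean of 3. Gfap rose to between 728 and 2764 at 6 h with array B lowest, while Ntsr2, Agt and Cnp at 6 h lay below all their 3 h arrays.

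Gfap and Ntsr2 are the members with the largest rise and the largest fall, and the 250 bases before their start sites are shown for this reason (RefSeq, GRCr8; 25 of the 34 members have an entry in the table). Gfap lies at chr10:88361662-88361911 on the minus strand and Ntsr2 at chr6:45152845-45153094 on the plus strand, both printed along the gene's strand, with the match to a STAT motif in capitals.
Gfap: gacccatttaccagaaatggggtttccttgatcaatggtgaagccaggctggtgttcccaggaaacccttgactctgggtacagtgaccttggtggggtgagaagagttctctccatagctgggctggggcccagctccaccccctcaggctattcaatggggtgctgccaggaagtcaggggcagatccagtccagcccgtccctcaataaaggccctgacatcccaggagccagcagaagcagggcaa
Ntsr2: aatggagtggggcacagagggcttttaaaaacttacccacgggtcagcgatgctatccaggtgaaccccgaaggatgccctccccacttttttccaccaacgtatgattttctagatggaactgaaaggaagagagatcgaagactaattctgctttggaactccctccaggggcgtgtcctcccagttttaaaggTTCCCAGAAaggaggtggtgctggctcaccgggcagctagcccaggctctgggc
The STAT motif TTCNNNGAA, searched on both strands, occurs in the Ntsr2 window 54 bases before the start, as TTCCCAGAA. It is in 3 of the 25 member windows and in 7.52% of all 27457 windows. The Gfap window holds no match to it, nor to the AP-1 motif TGANTCA (6.36% of windows), the NFI half-site TTGGC (40.3%), the SOX motif ACAAAG (16%) or TATAAA (13.1%). A match describes letters in this window only.

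Aqp4, the water channel of astrocyte endfeet, had 3 probe sets with positive changes under both treatments. Its brightest probe set read 181, 119 and 189 in low potassium, against 171, 133 and 147 with GW5074 at 3 h. The 6 h values were 341, 283 and 189 (low potassium) and 264, 302 and 159 (GW5074), so the times overlapped. It changed by 0.62 ± 0.25 (adjusted p = 0.0882) in low potassium and 0.53 ± 0.25 with GW5074. The dimmest of the 3 probe sets passed in low potassium (log2 0.75, adjusted p = 0.0490), a call lost in 17 of 21 alternative settings.

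S100b and Slc1a3 did not pass the test over all arrays. S100b, a calcium-binding protein, read 138, 122 and 169.9 (low potassium) and 129.5, 136 and 150.1 (GW5074) at 3 h. At 6 h S100b read 213, 176 and 99.5 (low potassium) and 134, 212 and 101 (GW5074). The log2 change was 0.07 ± 0.25 in low potassium and -0.01 ± 0.25 with GW5074, with array C lowest at 6 h and highest at 3 h.

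Slc1a3, the glutamate transporter GLAST of astrocytes and Bergmann glia, read 384, 368 and 426 (low potassium) and 424, 391 and 379 (GW5074) at 3 h. The 6 h intensities of Slc1a3 were 329, 486 and 194 (low potassium) and 266, 515 and 170.3 (GW5074): arrays A and C lay below every 3 h array and array B above. The change over all arrays was -0.33 ± 0.33 and -0.50 ± 0.33 and did not pass. Without the 6 h arrays of letter B, Slc1a3 passed at -0.64 (adjusted p = 0.0357) in low potassium and -0.92 (adjusted p = 0.00535) with GW5074. No other Slc1a3 probe set passed in that setting. Over all arrays its 3 probe sets changed by -0.37 to 0.17 in low potassium, where 1 was positive. With GW5074 they changed by -0.50 to -0.06. So the reading of Slc1a3 with time rests on the 6 h arrays of letter B and on its brightest probe set.

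Of the 10 astrocyte genes tested, 1 rose (Gfap) and 2 fell (Ntsr2 and Agt) under each treatment. Limma called 22.7% of all probe sets in low potassium and 25.0% with GW5074. The median change of the 10 genes was -0.20 in low potassium and -0.19 with GW5074, beside -0.0028 and -0.0040 over all probe sets. Without low potassium 6 h array C the median in low potassium was 0.13, and without GW5074 6 h array B it was -0.49 with GW5074. The other astrocyte genes, Gja1 (connexin 43), Glul (glutamine synthetase), Fabp7 (a fatty acid-binding protein of radial and Bergmann glia) and Aldh1l1 (a folate enzyme), did not pass over all arrays. With GW5074 and without the 6 h arrays of letter B, Gja1 (-0.34 over all arrays) passed at -0.79 (adjusted p = 0.0215), Glul at -0.65 (adjusted p = 0.0160) and a second Aqp4 probe set at 0.72 (adjusted p = 0.0217). No other Glul probe set passed in that setting. Over all arrays the 3 Glul probe sets changed by -0.48 to -0.03 with GW5074 and by -0.30 to 0.13 in low potassium, where 1 was positive.

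In the oligodendrocyte lineage Cnp passed the test, and the other genes did not on their brightest probe set. Cnp, the myelin enzyme 2',3'-cyclic nucleotide 3'-phosphodiesterase, read 643, 776 and 655 in low potassium, against 697, 585 and 561 with GW5074 at 3 h. The 6 h values of Cnp were 422, 473 and 409 (low potassium) and 379, 491 and 353 (GW5074), all below the 3 h arrays. Cnp fell by 0.66 ± 0.15 on the log2 scale (adjusted p = 0.00687) in low potassium and by 0.61 ± 0.15 (adjusted p = 0.00906) with GW5074. Its other probe set changed by -0.34 (adjusted p = 0.267) and -0.70 (adjusted p = 0.0277).

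Mbp, myelin basic protein, read 2028, 2708 and 2066 (low potassium) and 2194, 2429 and 1787 (GW5074) at 3 h on its brightest probe set. At 6 h this probe set gave 1423, 1602 and 1654 (low potassium) and 1120.3, 1909 and 1431 (GW5074). The low potassium arrays did not overlap between the times, while the GW5074 array B at 6 h lay among the 3 h arrays. The change of -0.40 ± 0.17 (adjusted p = 0.101) and -0.43 ± 0.17 (adjusted p = 0.0780) did not pass. The dimmest Mbp probe set did pass under both treatments (-0.56, adjusted p = 0.030, and -0.63, adjusted p = 0.0158). The remaining one passed with GW5074 (-0.81, adjusted p = 0.0200) and not in low potassium (-0.54, adjusted p = 0.107). All 3 Mbp probe sets were negative under both treatments. The brightest one passed with GW5074 when the 6 h arrays of letter B were left out, at -0.63 (adjusted p = 0.00799).

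The remaining lineage genes did not pass over all arrays. Mag, a myelin adhesion protein, read 133, 167 and 108 (low potassium) and 126, 113 and 71.1 (GW5074) at 3 h, and 83.6, 119 and 65.4 (low potassium) and 85.5, 114 and 78.5 (GW5074) at 6 h. Its change was -0.59 ± 0.24 (adjusted p = 0.0884) in low potassium and -0.13 ± 0.24 with GW5074. Mag passed in low potassium when the 6 h arrays of letter B were left out, at -0.78 (adjusted p = 0.0290). Pdgfra, the receptor of precursors, stayed in a narrow range: 78.6, 115 and 82.2 (low potassium) and 111, 86.6 and 73.1 (GW5074) at 3 h, and 78.8, 91.3 and 78.6 (low potassium) and 90.3, 74.5 and 79.0 (GW5074) at 6 h. The 95% interval of the Pdgfra change was -0.56 to 0.25 in low potassium and -0.53 to 0.28 with GW5074. The median of the 7 lineage genes was -0.40 in low potassium and -0.12 with GW5074.

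Microglia genes showed no change with time that passed. Limma called 0 of 8 under either treatment, beside 22.7% of all probe sets in low potassium and 25.0% with GW5074. Likewise 0 of 8 had an unadjusted p below 0.05, beside 6816 of all 18625 probe sets in low potassium and 7028 with GW5074. C1qc, a chain of complement C1q, had the smallest p. Its values were 65.0, 116 and 60.4 (low potassium) and 66.5, 111 and 70.2 (GW5074) at 3 h, and 65.2, 52.5 and 35.1 (low potassium) and 50.02, 67.6 and 36.2 (GW5074) at 6 h, which overlap. It changed by -0.53 ± 0.26 (adjusted p = 0.157) and -0.53 ± 0.26 (adjusted p = 0.148). A fit with the letter as a block across times called C1qc in low potassium (adjusted p = 0.0497) and with GW5074 (adjusted p = 0.0459). The labels do not say that a letter marks 1 culture at both times, and of 12 pairs of same-letter arrays across times, 4 resembled each other most among the 3 letters (correlation of their deviations from -0.07 to 0.18). Cd68, a lysosomal protein of phagocytes, read 125, 191 and 120.0 (low potassium) and 114, 186 and 103 (GW5074) at 3 h, and 131, 82.3 and 99.0 (low potassium) and 154, 96.5 and 72.3 (GW5074) at 6 h.

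Csf1r, the receptor that microglia need to survive, read 43.7, 77.4 and 52.5 (low potassium) and 52.6, 45.5 and 42.8 (GW5074) at 3 h, and 72.5, 36.6 and 51.1 (low potassium) and 66.6, 53.2 and 60.6 (GW5074) at 6 h. The log2 change was -0.10 ± 0.22 and 0.31 ± 0.22. The class medians were -0.09 in low potassium and -0.28 with GW5074. The interval of a single gene is wide, for Csf1r -0.58 to 0.37 and -0.17 to 0.78.

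Across the 3 classes, the count of members called was near the background. In low potassium 2 member probe sets were higher and 4 lower of 34, and limma called 22.7% of all probe sets (11.6% higher, 11.0% lower). With GW5074 1 was higher and 6 lower of 34, beside 25.0% of all (13.1% higher, 11.9% lower). Of the 25 genes, 18 were negative in low potassium and 19 with GW5074, beside 50.3% of all probe sets in each.

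**Figure D2:**
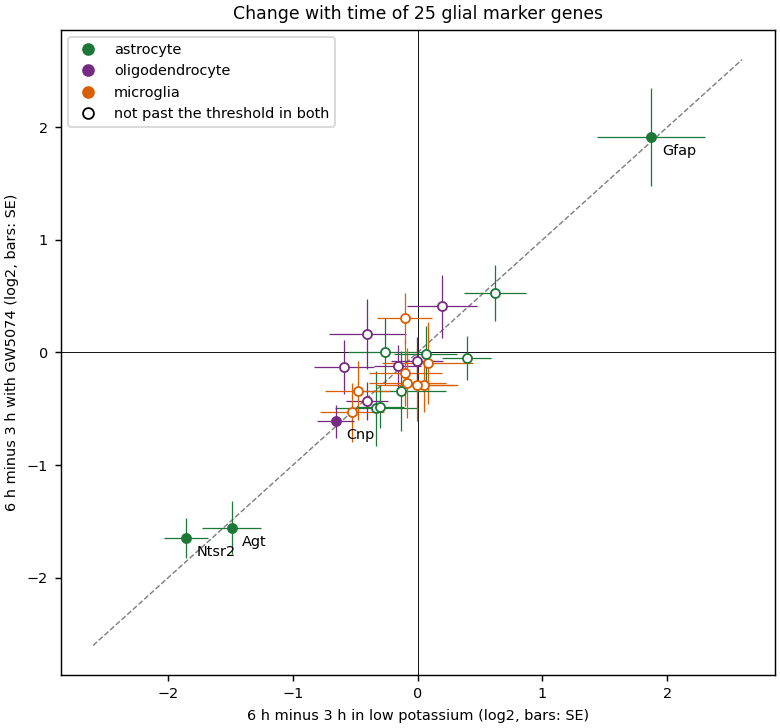
Log2 change from 3 h to 6 h of the 25 tested marker genes in low potassium (x axis) and with GW5074 (y axis), 1 point per gene with its SE, filled where limma passed the threshold under both treatments; the dashed line marks equal change. Gfap stands at 1.87 and 1.92, and Ntsr2, Agt and Cnp lie at the negative end.

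Neuronal markers that passed mostly rose. Of all probe sets, limma called 22.7% in low potassium (11.6% higher, 11.0% lower). With GW5074 it called 25.0% (13.1% higher, 11.9% lower). These shares stand beside the list counts in this and the next paragraph. The 19 tested markers of granule and other neurons had a median change of 0.48 in low potassium, where 10 rose and 1 fell, and of 0.60 with GW5074, where 14 rose and 0 fell. Among them were Rbfox3 (NeuN, 1.44 and 1.67) and Gabra6 (the granule cell GABA receptor subunit, 1.86 and 2.05). Further astrocyte genes kept the mixed picture of the astrocyte members. Of 18 other astrocyte and Bergmann glia genes, 4 rose and 4 fell in low potassium, and 3 rose and 3 fell with GW5074. Hopx, a homeodomain protein of Bergmann glia, rose by 1.30 and 1.28, and Gdf10, a growth factor of Bergmann glia, changed by -1.02 in low potassium (adjusted p = 0.0131).

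Of 9 other oligodendrocyte lineage genes, 0 rose and 4 fell in low potassium: Bcas1 (-0.77), Myrf (-0.98), Fa2h (-0.84) and Ugt8 (-0.81). Myrf is the transcription factor of myelin genes, and Fa2h and Ugt8 are enzymes of myelin lipids. With GW5074 0 rose and 2 fell, Bcas1 (-0.74) and Ugt8 (-0.70). The median change of the 9 genes was -0.72 in low potassium and -0.55 with GW5074. Of 14 other microglia and macrophage genes, 0 passed in low potassium and 1 with GW5074, the Fc receptor Fcgr2b (-1.0, adjusted p = 0.0173). Among 12 genes of reactive glia 0 rose under either treatment. In low potassium 2 fell, Serpina3n and the transcription factor Stat3 (-0.39), and with GW5074 3 fell, Serpina3n, the metalloprotease inhibitor Timp1 (-0.86) and the chemokine Ccl2 (-1.2). Serpina3n, a serine protease inhibitor and a marker of reactive astrocytes, fell by 1.21 in low potassium and by 1.38 with GW5074 on the log2 scale. The part of the neuronal rise in the glial values was not tested.

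The second comparison asked whether GW5074 changes the glial readings. At 3 h, at 6 h and in the difference between the effects at these times, limma called 0 of the 34 member probe sets, and 0% of all probe sets in each. Of the members, 0 had an unadjusted p below 0.05, beside 300, 895 and 645 of all 18625 probe sets. Low potassium and GW5074 arrays of the same letter and time resembled each other, and the paired fit, which takes each such pair as a block, called 0 member probe sets as well. It called 0.0161% of all probe sets at 3 h, 1.87% at 6 h and 0.193% for the difference. Members with an unadjusted p below 0.05 were then 2, 4 and 2 of 34, beside 1225, 3036 and 2507 of all 18625.

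Gja1 and Fabp7 came closest to the threshold in the paired fit at 6 h. Gja1, the gap junction protein of astrocytes, read 367, 542 and 198 in low potassium, against 230.3, 477 and 149 with GW5074 at 6 h, lower with GW5074 in 3 of 3 pairs. Of the 25 genes, 3 (12%) were lower in all 3 pairs at 6 h, beside 17.8% of all probe sets. For Gja1 the differences between letters were larger than those between treatments. The paired change was -0.42 (95% interval -0.67 to -0.18, adjusted p = 0.0782). At 3 h Gja1 read 363, 378 and 362 (low potassium) and 365, 266 and 319 (GW5074).

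Fabp7 read 686, 714 and 627 in low potassium, against 413, 728 and 439.5 with GW5074 at 6 h, lower in arrays A and C and level in B. Its paired change was -0.41 (95% interval -0.67 to -0.15, adjusted p = 0.102). Without the 6 h pair B it passed, at -0.64 (adjusted p = 0.0129). It was the 1 member probe set of 34 called in that setting, beside 292 of all 18625. At 3 h the values were 541, 527 and 457 (low potassium) and 641, 462 and 465 (GW5074). C1qa, another chain of C1q, was also lower in 3 of 3 pairs at 6 h, as were 17.8% of all probe sets. Its paired change was -0.35 (adjusted p = 0.197).

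At 3 h the treatment differences of the oligodendrocyte lineage genes were mostly negative, and none passed. On the brightest probe sets 7 of 7 were negative, with a median of -0.17, beside 50.9% of all probe sets negative. Another Cnp and another Mbp probe set were positive (0.10 and 0.17). Of the 7 genes, 3 were lower in all 3 pairs, beside 14.4% of all probe sets. In pair A 4 of the 7 were lower, beside 49.2% of all probe sets, and their median was -0.04. The 9 other lineage genes had a median of -0.06. Cspg4, under the filter, read 5.48, 3.91 and 4.98 in low potassium, against 13.3, 13.4 and 15.2 with GW5074. Without the filter limma gave a difference of 0.52 (unadjusted p = 0.0123) and did not call it. At 6 h Cspg4 read 8.40, 0.95 and 1.39 (low potassium) and 5.94, 1.91 and 8.28 (GW5074), with no fixed direction between letters. So dim a gene can be read only as low. Sox10, the transcription factor of the whole lineage, read 53.8, 57.3 and 49.6 in low potassium, against 46.6, 19.8 and 27.7 with GW5074, with no overlap. The paired change was -0.61 (95% interval -1.15 to -0.07, adjusted p = 0.735). Mag had the smallest paired p at 3 h, with a change of -0.39 (95% interval -0.69 to -0.08, adjusted p = 0.683). Olig1, a transcription factor of precursors, read 153, 112 and 149.8 (low potassium) and 106, 108 and 107 (GW5074), again apart.

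These were the 2 genes of 25 whose groups did not overlap at 3 h, both lower, against 7.22% of all probe sets. At 6 h 0 of 25 genes were apart, against 9.74%. The 6 h values of Sox10 were 35.6, 18.4 and 65.4 (low potassium) and 21.6, 42.1 and 39.4 (GW5074), a difference of -0.04 with no fixed direction between letters. Olig1 read 210.3, 99.4 and 219.5 (low potassium) and 129, 116 and 243 (GW5074) at 6 h, where array B was the lowest under both treatments. GW5074 array C at 3 h, the lowest array of the lineage at that time, also had the highest actin 3-prime to 5-prime difference (1.36), and the part of RNA quality in the 3 h values was not tested.

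For the microglia gene Cd74, the invariant chain of MHC class II, the 3 h values were 42.2, 54.1 and 34.6 in low potassium, against 61.1, 75.5 and 51.3 with GW5074. All 3 pairs were higher with GW5074, by 0.40 (95% interval -0.03 to 0.84 in the paired fit, adjusted p = 0.811). Of all probe sets, 13.3% were higher in all 3 pairs at 3 h. At 6 h Cd74 read 65.0, 32.3 and 42.0 (low potassium) and 45.7, 63.5 and 33.3 (GW5074), which go in different directions by letter. Gfap, which rose with time, differed between the treatments by -0.13 (95% interval -0.38 to 0.11) at 3 h and -0.09 (-0.33 to 0.15) at 6 h in the paired fit.

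The sign of the treatment difference at 6 h depended on the letter. In pair A, which holds the array with the other title suffix, 19 of 25 genes were lower with GW5074 and the median was -0.39, beside 49.3% of all probe sets lower. In pair C 15 of 25 were lower (median -0.15, 49.6% of all) and in pair B 9 of 25 (median 0.07, 49.5% of all). At 3 h the counts were 10, 17 and 20 of 25 for A, B and C, beside 49.2%, 49.5% and 53.0% of all. The medians of the 25 genes at 3 h were 0.09, -0.08 and -0.23. Over the 3 pairs, 18 of 25 genes were negative at each time, beside 50.9% (3 h) and 49.7% (6 h) of all probe sets.

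**Figure D3:**
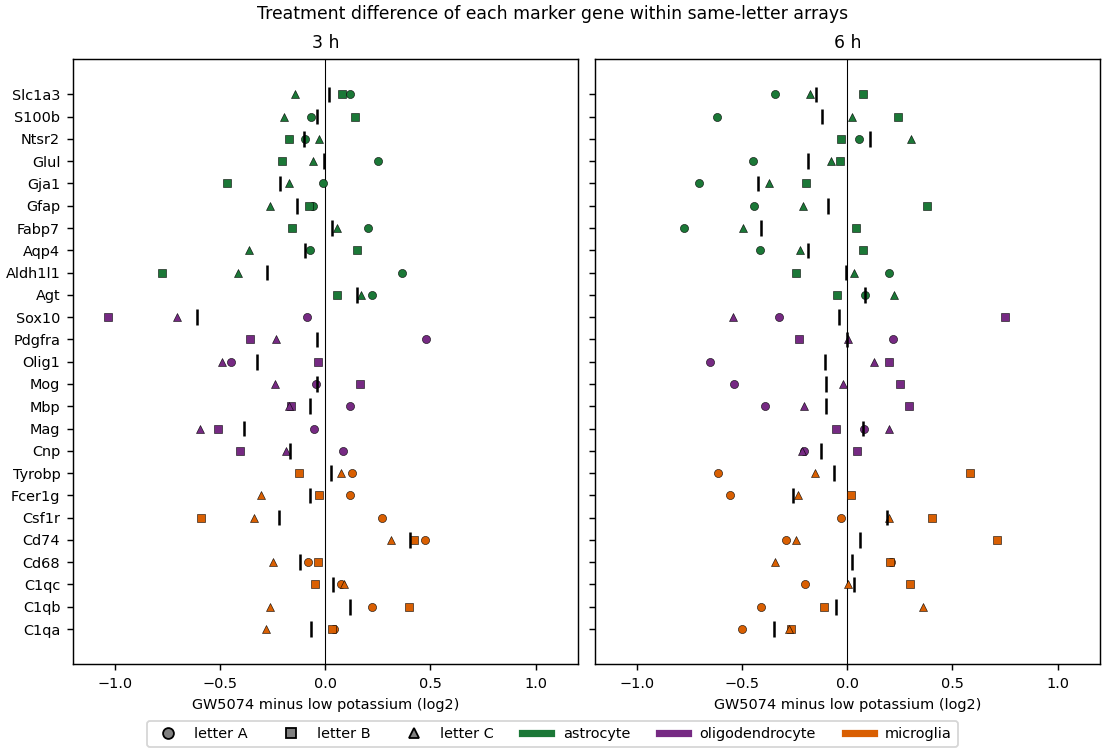
Log2 difference GW5074 minus low potassium of the 25 tested genes within each pair of same-letter arrays, at 3 h (left) and 6 h (right); symbols are letters, colours are classes and the black bar is the mean of 3 pairs. At 6 h most circles (pair A) lie left of 0 and most squares (pair B) near or right of it, and the square of Sox10 (-1.03) lies farthest left at 3 h.

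The spread between arrays of a group was wide for microglia and astrocyte genes. The residual SD within groups had a median of 0.40 in log2 for the 8 microglia genes, 0.36 for the 10 astrocyte genes and 0.25 for the 7 oligodendrocyte lineage genes, beside 0.24 over all probe sets. Of these genes 6, 7 and 3 lay above the 75th percentile of all probe sets (0.32). Gfap, at 0.69, had a larger residual SD than 99.2% of probe sets.

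The microglia genes varied together by letter. At 3 h array B was the highest of its group under both treatments for 7 of 8 genes, beside 10.8% of all probe sets. Array C was the lowest under both for 7 of 8, beside 23.3%. At 6 h array A was the highest in low potassium for 8 of 8 genes and under both treatments for 5 of 8, beside 12.5%. The examples C1qa, Fcer1g and Tyrobp were chosen after their values were seen.

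C1qa read 103, 180.0 and 85.9 in low potassium, against 104, 184 and 73.6 with GW5074 at 3 h, with B highest and C lowest under both treatments. At 6 h it read 183, 111 and 88.8 (low potassium) and 124, 88.8 and 68.5 (GW5074), with A the highest. Fcer1g, the common chain of Fc receptors, read 201, 344 and 178 (low potassium) and 219, 335 and 145 (GW5074) at 3 h. Its 6 h values were 339.6, 175 and 194 (low potassium) and 236, 177 and 162 (GW5074), in the same order of the highest array as C1qa. Tyrobp, the adaptor of TREM2, followed with 75.5, 111 and 61.0 (low potassium) and 81.6, 101 and 69.9 (GW5074) at 3 h, and 141, 44.9 and 65.9 (low potassium) and 82.9, 74.4 and 57.5 (GW5074) at 6 h.

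The level of the class, the mean log2 deviation of its 8 genes from their own mean over 12 arrays, was 0.51 in both 3 h arrays of letter B. In the other 3 h arrays it lay between -0.32 and 0.10. At 6 h it was 0.37 in low potassium array A and 0.07 in its GW5074 partner, and -0.36 to -0.05 elsewhere. The 14 other microglia and macrophage genes had 0.47 and 0.41 in the 3 h arrays of letter B, and 0.34 in the low potassium 6 h array A. In those other arrays they lay at 0.16 or below. The actin difference of the 3 h arrays of letter B (0.90 in low potassium and 0.91 with GW5074) lay between those of letters A and C. The same difference for GAPDH was 0.08 in low potassium, the lowest of its group, and 0.15 with GW5074, between A and C. Added poly-A control RNAs averaged 6.61 and 6.86 in log2 in letter B, against 5.69 and 5.46 in A and 6.94 and 6.85 in C. The part of these controls in the microglia pattern was not tested.

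**Figure D4:**
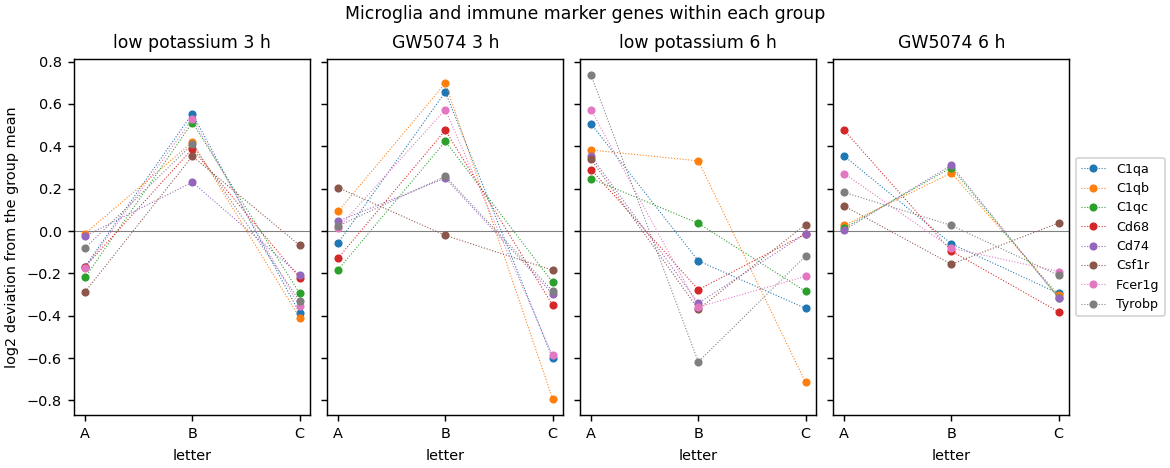
Log2 deviation of the 8 microglia and immune genes from their group mean in arrays A, B and C of each group, 1 colour per gene; dotted lines join the 3 arrays of a group for 1 gene and stand for no order. At 3 h the genes peak together in array B and are lowest in array C for 7 of 8 genes under both treatments, and in low potassium at 6 h all 8 are highest in array A.

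Astrocyte genes had another letter pattern, at 6 h. Array B was the highest under both treatments for 6 of 10 genes (23.3% of all probe sets) and array C the lowest under both for 6 of 10 (19.1%). Gja1 and Slc1a3 are among them, with array B at more than 2-fold the intensity of array C under both treatments. Gfap is an exception, with array B the lowest. Array B at 6 h is the one nearer the 3 h arrays over all probe sets, and the part of that position in the astrocyte pattern was not tested. The mean log2 level of the 10 astrocyte genes, relative to each gene's mean over 12 arrays, ran at 6 h from -0.30 to 0.14 in low potassium and from -0.40 to 0.16 with GW5074.

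The oligodendrocyte lineage genes had no array that was highest or lowest for more than 2 of 7 genes under both treatments. The mean log2 level of the 7 genes was 0.15 to 0.31 in low potassium and -0.23 to 0.20 with GW5074 at 3 h, and -0.19 to 0.02 and -0.30 to -0.01 at 6 h.

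**Figure D5:**
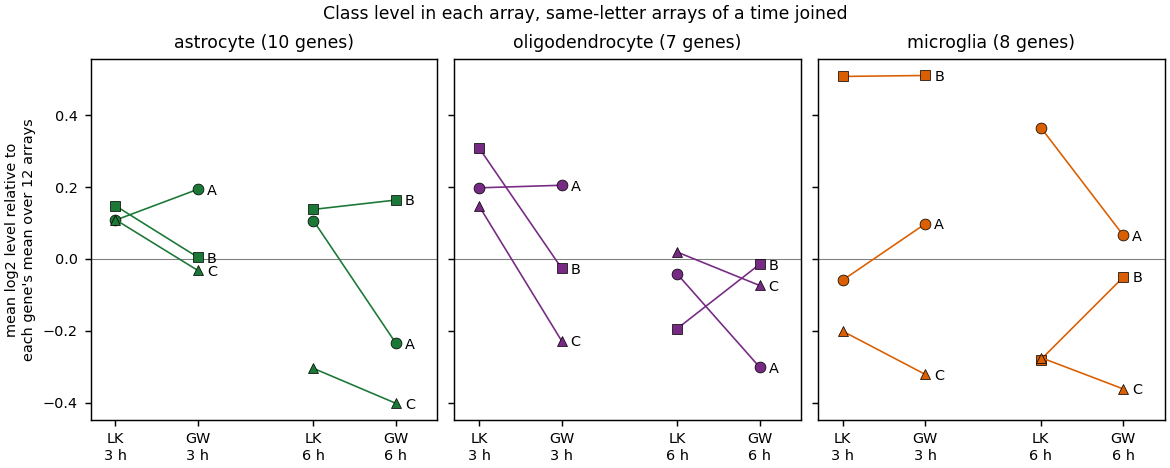
Mean log2 level of the tested genes of each class in each array relative to each gene's mean over 12 arrays, with same-letter arrays of a time joined between low potassium (LK) and GW5074 (GW). Microglia arrays B at 3 h stand at 0.51, and at 6 h the astrocyte arrays C lie lowest and B highest.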

How the data were processed

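The authors deposited linear intensities of 31099 probe sets (Affymetrix rat array) for each array, scaled, from the values, to a mean of 150 trimmed by 2% at each end. The sources used here do not name the summarisation method. Symbols were read from the platform table (20826 of 31042 non-control probe sets with 1 symbol). The deposited intensities were quantile-normalised, 16 was added and log2 was taken. Fold changes are on this scale and understate dim genes.

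Testing was done with limma 3.58.1 (R 4.3.3, mean-variance trend, two-sided) on 4 group means over 18625 probe sets, with Benjamini-Hochberg adjustment at 0.05 over all of them. The paired fit adds each same-letter pair within a time as a replicate block. Deviations from the group means correlated within the pairs of letters A, B and C. The correlations were 0.426, 0.209 and 0.543 for 3 h, then 0.293, 0.650 and 0.571 for 6 h, each pair being the best match, so the letters pair arrays within a time. Precision is limited by the number of arrays. The fit was tested on simulated data, drawn independently for each array and so without the correlation within pairs. Changes were added with time only, so this does not test how the paired fit finds a treatment effect. Figures used matplotlib 3.10.9 in Python 3.11.15.

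The members, gene lists and tests were chosen with earlier results of these data known. Values in every array are given for members past the threshold, the 4 with the smallest p in each class, and preset markers (Gfap, S100b, Slc1a3, Mbp, Olig2, Pdgfra, Aif1, Cx3cr1 and Csf1r, by range where below the filter). Gja1, Fabp7, Olig1, C1qa, Fcer1g and Tyrobp were added after their values were seen. Other gene lists are named by at most 4 genes with the smallest p. The lists of Purkinje and GABAergic neurons (1 of 9 tested genes rose and 1 fell with time under each treatment), of endothelial cells, pericytes and fibroblasts (1 of 6 rose and 0 fell under each) and of proliferation genes (of 8 tested, 0 passed in low potassium and 1 fell with GW5074) were checked in the same way. With time, 22.7% of all probe sets were called in low potassium and 25.0% with GW5074.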

Additional observations from a re-analysis of the deposited data

How the results depend on the processing

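Gfap, Ntsr2, Agt and the brightest Cnp probe set kept their call and direction from 3 h to 6 h in 22 of 22 alternative settings under both treatments, with Gfap between 1.5 and 2.50 in low potassium and between 1.73 and 2.30 with GW5074. The settings were other scalings, pseudocounts of 4 and 64, no filter and a 60th percentile filter, no trend, and blocks. Further settings left out each array, or both 6 h arrays of letter B. The called Mbp probe sets and the second Cnp probe set each lost their call in 3 or 4 settings, all of them arrays left out. With the letter as a replicate block across times, 10 member probe sets were called in low potassium and 12 with GW5074, against 6 and 7, while the calls over all probe sets were 5540 and 5831, against 4223 and 4664. Without both 6 h arrays of letter B, 12 were called with GW5074 (5847 of all probe sets). Leaving out 1 array gave 4 to 11 with GW5074, the lowest without GW5074 6 h A and the highest without GW5074 6 h B, beside 2463 and 5362 of all probe sets in these settings. For GW5074 at 6 h, the paired fit (pairs as a replicate block) called 0 members, beside 349 of all 18625 probe sets. Without the 6 h pair B it called 1 (Fabp7), beside 292 of all 18625. Of 411 class medians, 408 moved by less than the spread between arrays. The astrocyte median with time moved to 0.13 in low potassium without low potassium 6 h C, and to -0.49 with GW5074 without 6 h array B. A paired fit without the trend and one on the deposited scaling, both chosen after seeing the data, called 0 members in all 3 comparisons. Of all 18625 probe sets, the fit without the trend called 0 at 3 h, 1 at 6 h and 0 for the difference, so it could hardly call a member. The fit on the deposited scaling called 4, 323 and 25. The cause of the shifts between settings was not tested. Signal near the filter limits the 8 dim genes.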

Other observations

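Some genes of related lists passed for GW5074 at 6 h in the paired limma fit, where no member did. Atp1b2, a sodium pump subunit of astrocytes that also acts in adhesion, was higher by 0.48 ± 0.08 in log2 (SE, n = 3 pairs, adjusted p = 0.00772). Id3, a helix-loop-helix inhibitor listed with astrocyte genes, changed by -0.81 ± 0.19 (adjusted p = 0.0423). S1pr3, a sphingosine 1-phosphate receptor listed with reactive glia, changed by -0.88 ± 0.20 (adjusted p = 0.0364). Ccnd1, the G1 cyclin D1, changed by -0.55 ± 0.11 (adjusted p = 0.0186). Slc17a7, the vesicular glutamate transporter of granule neurons, was higher by 0.42 ± 0.06 (adjusted p = 0.00426). The treatment effect on Atp1b2 differed between the times by 0.77 ± 0.12 (adjusted p = 0.0316). Of the lists these came from, 1 of 18 other astrocyte genes rose and 1 fell, 1 of 12 reactive glia genes fell, 1 of 8 proliferation genes fell and 1 of 19 neuron markers rose, beside 1.87% of all probe sets called. These calls depended on the fit. Without pairs limma called 0 of all probe sets, with 895 at an unadjusted p below 0.05. The paired fit without the mean-variance trend, chosen after seeing the data, called 1 at 6 h, which was none of these genes (adjusted p of 0.184 for Atp1b2, 0.204 for Slc17a7, 0.241 for Id3, 0.209 for S1pr3 and 0.200 for Ccnd1). Over the 8 other settings of the paired fit, Slc17a7 kept its 6 h call in 7, Atp1b2, S1pr3 and Ccnd1 in 5 and Id3 in 3. Without the 6 h pair A the calls of Atp1b2, S1pr3, Ccnd1 and Id3 were lost (adjusted p of 0.0719, 0.252, 0.184 and 0.383), and without the 6 h pair C likewise (0.0642, 0.194, 0.0833 and 0.0788). For the difference between the times the paired fit called 36 probe sets, and 0 without the trend or without the 6 h pair A; the Atp1b2 call held in 2 of 8 settings, the deposited scaling and without the 6 h pair B.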
